A study of Mus musculus with 24 samples.

Results

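The effect of streptozotocin diabetes on the renal cortex of mice drinking plain water was read from 12 of the 24 libraries of the study. The members are the 6 libraries labelled diabetic with vehicle and the 6 labelled non-diabetic with vehicle, and every gene that passed an expression filter was compared between them. The filter left 15808 of the 48526 genes in the table. All mice were C57BL/6. Diabetic mice had 5 daily injections of 55 mg/kg streptozotocin from 6 weeks of age, and non-diabetic mice were given 0.5 M sodium citrate. Animals of both kinds then drank water without drug and were followed for 24 weeks. The 12 other libraries come from diabetic and non-diabetic mice that received 2 mg/kg PMX-53, a peptide inhibitor of the complement receptor C5aR1, in the water. They are set beside the vehicle mice for comparison and share no library with them. Below, diabetic and non-diabetic mice are those on vehicle unless PMX-53 is named. Blood glucose, sex and the substrain of C57BL/6 are not stated in the sources used here, and streptozotocin, a beta cell toxin, models insulin deficiency rather than insulin resistance. All diabetic mice had streptozotocin and no non-diabetic mouse did, on vehicle and on PMX-53. An effect of diabetes and an effect of streptozotocin itself therefore cannot be told apart.

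The renal cortex is made mostly of proximal tubule, which takes back filtered glucose, phosphate, amino acids and protein and secretes organic ions and drugs. Glucose enters these cells through sodium-coupled transporters and leaves them on the blood side through facilitative ones. The same cells make glucose from lactate and amino acids and burn fatty acids in their mitochondria. Diabetes raises the load of glucose and water that reaches the later segments, where the thick ascending limb, distal tubule and collecting duct set the final urine.

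Diabetic libraries held 15703433 to 22000895 counts and non-diabetic libraries 12461567 to 17810087. Levels are given as CPM, a gene's share of its library's counts after scaling between libraries. Mitochondrially encoded genes, their ribosomal RNAs included, took 25.9 to 31.9% of all counts in diabetic and 20.1 to 24.6% in non-diabetic libraries, without overlap. Ribosomal RNA genes of all kinds took 21.0 to 27.0% in diabetic and 16.7 to 20.6% in non-diabetic libraries. Of the counts outside ribosomal RNA, mitochondrially encoded genes took 5.55 to 6.66% in diabetic and 4.08 to 5.43% in non-diabetic libraries. With the mitochondrially encoded and ribosomal RNA genes left out of the fit, 6353 genes were called in place of the 6363 reported below. The labels name 6 separate samples per group but do not say how mice map to them, so p-values measure the spread between these samples. Y-linked genes were read in all 12 libraries (Ddx3y at 41.3 to 63.0 CPM), whereas Xist, the X-inactivation RNA of females, had 3 to 9 counts.

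The diabetic vehicle libraries also lay outside all 18 other libraries of the study at 590 genes, 3.73% of those tested. The gap was 1.5-fold or more at 20 of these whose average log2 CPM was 1 or higher. They include Acad10, an acyl-CoA dehydrogenase gene at chr5:121621026-121660514 (GRCm38, GENCODE M21), with 11.6 to 16.4 CPM in these 6 and 57.1 to 82.9 CPM in the 18 others. The mitochondrial transhydrogenase gene Nnt, at chr13:119335448-119408997, had 242 to 272 against 101 to 121 CPM, and Wdfy1, an endosomal adaptor gene at chr1:79702262-79776143, had 66.6 to 79.6 against 26.1 to 33.2 CPM. Ide, the insulin-degrading enzyme gene, stood at -1.04 ± 0.10 (log2) on vehicle and -0.044 ± 0.10 on PMX-53. As background, C57BL/6J mice carry a deletion in Nnt that other C57BL/6 substrains lack. From the vehicle groups alone, an effect of diabetes and a substrain trait of the diabetic vehicle mice cannot be told apart, so values on PMX-53 stand beside the main results.

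The quasi-likelihood test of edgeR called 6363 of 15808 genes (40.3%) at an adjusted p under 0.05. Of these 3223 (20.4% of genes tested) were higher and 3140 (19.9%) lower in diabetic mice. Without scaling beyond library totals the split was 1802 higher and 3982 lower. Most differences were small: the median size among called genes was 1.35-fold, 2241 genes reached 1.5-fold, 934 reached 2-fold and 181 reached 4-fold. The 2-fold set was split into 489 higher and 445 lower genes. In 2340 called genes the 6 diabetic and the 6 non-diabetic libraries did not overlap, a state found in 14.9% of all genes tested. The first principal component of the 12 libraries carried 52.7% of the variance and set the groups apart, with diabetic replicate 4 nearest to the non-diabetic libraries. Counts for gene lists below stand beside 20.4% of all genes higher and 19.9% lower on vehicle. On PMX-53 5.52% of all genes rose with diabetes and 4.52% fell, and the effects in the 2 settings differed at 9.42%.

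**Figure D1:**
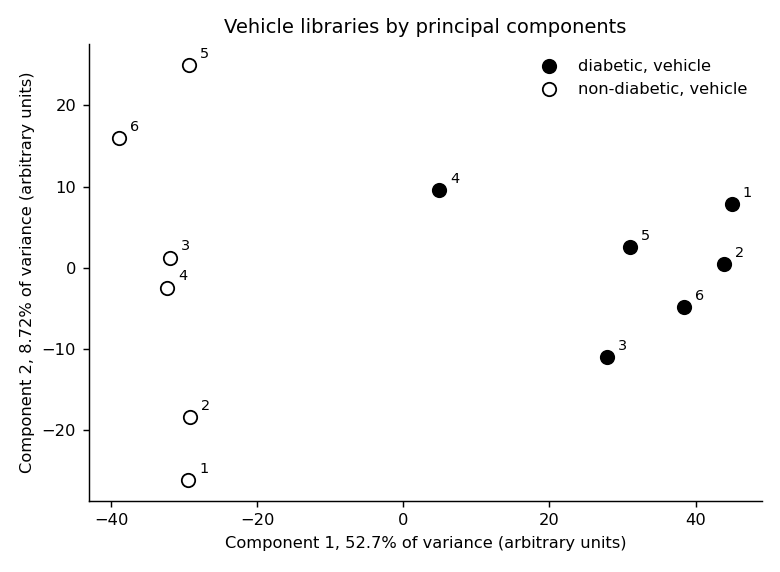
First and second principal components of log2 CPM over the genes tested, one point per library, with filled circles for diabetic and open circles for non-diabetic vehicle mice. Diabetic libraries lie at 4.93 to 44.97 and non-diabetic libraries at -38.9 to -29.2 on the first component (arbitrary units), and the diabetic point nearest to the non-diabetic ones is replicate 4.

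Diabetic replicate 4 stood between the groups, but not for all genes. Each diabetic library was placed on the genes that differed at least 2-fold in the fit without it, as a percent of the mean difference of the other 5 diabetic libraries from non-diabetic mice. Replicate 4 lay at a median of 52.0% over 1092 genes, and the 5 others lay at 87.7 to 117%. Over 9 p53 targets, by contrast, it lay at 96.4%. It was at 58.4% over 9 glucocorticoid-responsive genes, 33.4% over 9 interferon genes, 27.5% over 11 organic ion transporters and 18.01% over 6 S3 markers. For Nnt it held 255 CPM, within the range of its group. Without replicate 4, 6796 genes were called. The organic ion transporters called were 5 higher and 17 lower without it, against 5 and 16 with it. The S3 markers called were 1 higher and 6 lower without it, against 1 and 5 with it, and the interferon genes called were 10 higher and 3 lower without it, against 10 and 3 with it.

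The genes with the smallest p among those higher in diabetes were led by Nnt and by targets of the tumour suppressor p53. Outside those groups stood Aldh1a1, an enzyme that makes retinoic acid. It had 38.3 to 72.5 CPM (median 69.2) in diabetic and 6.10 to 11.1 CPM (median 9.002) in non-diabetic mice (log2 fold change 2.85 ± 0.17, edgeR adjusted p = 5.72e-11). Ephx1, the microsomal epoxide hydrolase, had 65.5 to 102 CPM (median 86.0) in diabetic and 14.7 to 22.2 CPM (median 18.6) in non-diabetic mice (log2 fold change 2.22 ± 0.14, edgeR adjusted p = 1.56e-10). Neither gene's groups overlapped, and the lowest diabetic library was well above the highest non-diabetic one. Aldoc, an aldolase of brain and fetal tissues, had a log2 fold change of 1.97 ± 0.14. Glud1, the glutamate dehydrogenase of mitochondria that feeds ammonia production, stood at 467 to 643 CPM (median 519.8) in diabetic and 289 to 307 CPM (median 297) in non-diabetic mice (log2 fold change 0.84 ± 0.064). The RNA sensor gene Ddx58 rose by 0.87 ± 0.061 and Bhmt, which remakes methionine from betaine, by 2.21 ± 0.17. On PMX-53 the log2 fold changes with diabetes were 1.28 ± 0.18 for Aldh1a1, 1.47 ± 0.14 for Ephx1, 0.77 ± 0.15 for Aldoc and 0.20 ± 0.064 for Glud1. All 4 passed there too, and all 4 passed the test of the difference between the effects (edgeR adjusted p from 1.06e-04 to 0.0179), with the larger effect on vehicle.

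Among the genes lower in diabetes, B4galt5, a galactosyltransferase of glycolipid synthesis, had 40.6 to 49.5 CPM (median 46.1) in diabetic and 148 to 196 CPM (median 165) in non-diabetic mice (log2 fold change -1.86 ± 0.10, edgeR adjusted p = 1.30e-12). Met, the receptor of hepatocyte growth factor, had 108 to 147 CPM (median 123) in diabetic and 226 to 262 CPM (median 248) in non-diabetic mice (log2 fold change -0.97 ± 0.072, edgeR adjusted p = 1.91e-10). The groups were separate for both. Enzymes of minor routes fell as well, the glycerate kinase gene Glyctk by 1.01 ± 0.078 and Sugct, which handles glutarate, by 0.99 ± 0.077 (log2). The chromatin remodelling gene Smarca2 fell by 1.32 ± 0.11, the ciliary gene Evc by 1.07 ± 0.088 and Zbtb20, a transcription repressor, by 0.98 ± 0.084. Hykk, the hydroxylysine kinase gene, stood at 192 to 330.1 CPM (median 212) in diabetic and 476 to 579 CPM (median 509) in non-diabetic mice. Camk2n1, an inhibitor of CaM kinase II, Tmtc4, a mannosyltransferase gene, and Arhgap10, a GTPase-activating protein gene, stood at -0.64 ± 0.053, -1.15 ± 0.10 and -0.55 ± 0.046. Arhgap10 was at -0.058 ± 0.045 on PMX-53, where it did not pass (edgeR adjusted p = 0.467).

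**Figure D2:**
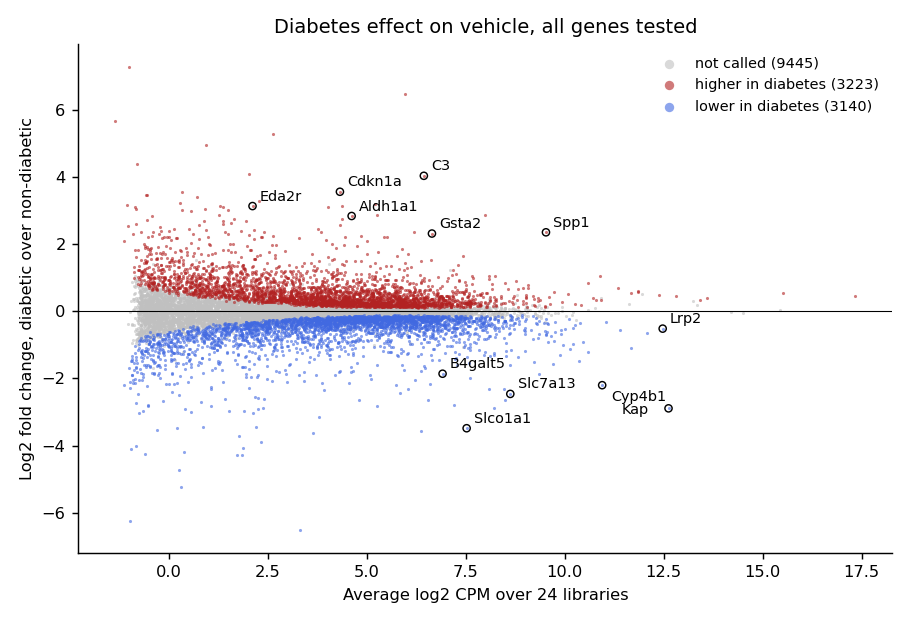
Log2 fold change with diabetes on vehicle (vertical axis) against average log2 CPM (horizontal axis) for the 15808 genes tested. Coloured points are the 3223 higher and 3140 lower genes past the threshold, grey points are the others, and the named points are genes given in the text.

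Genes that take the most reads in this tissue mostly moved by less than 2-fold. Gpx3, the glutathione peroxidase that the kidney secretes into plasma, rose by 0.34 ± 0.11, the ferritin heavy chain gene Fth1 by 0.35 ± 0.075, and the mitochondrially encoded mt-Co1, mt-Nd1, mt-Nd2 and mt-Nd5 by 0.39 to 0.54. On the other side Lrp2, the endocytic receptor megalin, had 4078 to 4938 CPM (median 4459.5) in diabetic and 6203 to 6669 CPM (median 6425) in non-diabetic mice (log2 fold change -0.51 ± 0.064, edgeR adjusted p = 5.07e-07). Slc34a1, the main phosphate transporter of the proximal tubule, had 2335 to 3604 CPM (median 3125) in diabetic and 3486 to 5263 CPM (median 5127) in non-diabetic mice (log2 fold change -0.64 ± 0.12, edgeR adjusted p = 1.12e-04). Acsm2, an acyl-CoA synthetase gene of the proximal tubule, fell by 1.09 ± 0.12 and Slc27a2, a fatty acid transporter, by 0.56 ± 0.071 (log2). Slc27a2 was at -0.44 ± 0.071 on PMX-53, where it passed too. Larger falls were seen for Kap, the androgen-regulated protein of the proximal tubule, at 145 to 5556 CPM (median 442) in diabetic and 8828 to 10875 CPM (median 9819) in non-diabetic mice (log2 fold change -2.89 ± 0.61, edgeR adjusted p = 7.45e-04). The fatty acid hydroxylase Cyp4b1 had 301 to 1058 CPM (median 503) in diabetic and 2277 to 3063 CPM (median 2963) in non-diabetic mice (log2 fold change -2.20 ± 0.25, edgeR adjusted p = 5.25e-07), the metalloproteinase inhibitor Timp3 fell by 1.21 ± 0.14 and the focal adhesion gene Tns1 by 0.30 ± 0.10. Diabetic replicate 4 had the highest diabetic value of Kap, Cyp4b1 and Timp3 and lay nearest to the non-diabetic mice.

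C3, the central complement protein, had 29.5 to 537 CPM (median 272) in diabetic and 12.9 to 29.3 CPM (median 14.5) in non-diabetic mice (log2 fold change 4.04 ± 0.54, edgeR adjusted p = 5.75e-06). Its effect on PMX-53 was 0.77 ± 0.52, and the difference passed (edgeR adjusted p = 0.00779). C5ar1, the receptor that PMX-53 blocks, was near the floor of detection at 0.522 to 1.33 CPM (median 1.01) in diabetic and 0.456 to 2.30 CPM (median 0.874) in non-diabetic mice and did not pass (edgeR adjusted p = 0.422). The genes in the rest of this paragraph were chosen after their values were seen. Fgg and Fga, chains of fibrinogen, rose by 3.12 ± 0.51 and 1.71 ± 0.36, and Apoe by 1.52 ± 0.22. Spp1 (osteopontin), a protein of injured and of distal tubule, had 516 to 2512 CPM (median 1725) in diabetic and 248 to 398 CPM (median 339) in non-diabetic mice (log2 fold change 2.36 ± 0.27, edgeR adjusted p = 6.80e-07). Havcr1 (KIM-1), a mark of proximal tubule injury, rose by 1.34 ± 0.43 at a median of 4.58 CPM in diabetic mice. Stc1 (stanniocalcin) rose by 2.18 ± 0.25, the prolactin receptor gene Prlr by 2.21 ± 0.42, and Hacl1 and Acsf2, enzymes of fatty acyl-CoA, by 2.37 ± 0.26 and 2.23 ± 0.18. Lpl, the lipase that frees fatty acids from lipoproteins, had 53.3 to 206 CPM (median 61.8) in diabetic and 453 to 761 CPM (median 513) in non-diabetic mice (log2 fold change -2.65 ± 0.27, edgeR adjusted p = 1.67e-07). Pzp, a protease inhibitor, fell by 3.56 ± 0.60, Inmt, a methyltransferase of tryptamines, by 2.32 ± 0.25, the medium-chain acyl-CoA synthetase Acsm3 by 2.87 ± 0.53 and the lipid-mobilising protein gene Azgp1 fell by 2.31 ± 0.20. The collagen genes Col19a1 and Col6a6 stood at -4.29 ± 0.47 and -3.72 ± 0.61, with medians of 0.146 and 0.292 CPM in diabetic mice. Odc1, the first enzyme of polyamine synthesis, fell by 1.37 ± 0.19 on vehicle and 0.91 ± 0.19 on PMX-53.

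Targets of p53, the transcription factor that answers DNA damage, rose together. Diabetes and streptozotocin itself cannot be told apart here, as all diabetic mice had the injections. Of 27 tested members of the list 21 rose and 0 fell (0 at an unadjusted p under 0.05, 0 by DESeq2 and 0 by limma), against 20.4% and 19.9% of all genes, and the median log2 fold change was 0.70 against -0.0014 over all genes. Mdm2, which marks p53 for breakdown, Ccng1 and Sesn1 each carry 1 match to the p53 binding decamer, 173 to 186 bases before their start. Cdkn1a, the cell cycle inhibitor p21, carries 2, the farther of them 73 bases before its start. The search asked for a single copy of the decamer. The stretches below come from RefSeq promoters on GRCm38.p6, with the decamer in capitals, searched on both strands. They are shown because these 4 members rose and hold a match outside the transcript.
Cdkn1a, chr17:29090866-29090977, plus strand: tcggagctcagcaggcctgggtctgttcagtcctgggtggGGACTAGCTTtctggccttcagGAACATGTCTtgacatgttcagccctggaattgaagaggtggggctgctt
Ccng1, chr11:40755422-40755511, minus strand: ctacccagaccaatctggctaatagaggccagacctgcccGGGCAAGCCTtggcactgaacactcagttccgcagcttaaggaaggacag
Mdm2, chr10:117710895-117710984, minus strand: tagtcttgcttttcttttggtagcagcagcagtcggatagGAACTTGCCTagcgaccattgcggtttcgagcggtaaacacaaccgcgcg
Sesn1, chr10:41887226-41887315, plus strand: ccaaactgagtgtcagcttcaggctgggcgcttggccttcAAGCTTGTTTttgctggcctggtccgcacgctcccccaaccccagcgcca
The decamer occurs in 10 of the 24 list genes with a promoter in the table, and in 8.36% of all 32851 promoters. Of the 10 list genes that hold it, 9 rose. Over all 908 tested genes with a match, 214 rose and 167 fell.

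Eda2r, a death receptor gene on the X chromosome, had 7.59 to 9.91 CPM (median 8.72) in diabetic and 0.846 to 1.25 CPM (median 0.925) in non-diabetic mice (log2 fold change 3.14 ± 0.12, edgeR adjusted p = 3.68e-17). Ccng1, which encodes cyclin G1, had 245 to 318 CPM (median 282) in diabetic and 118 to 166 CPM (median 131) in non-diabetic mice (log2 fold change 1.07 ± 0.074, edgeR adjusted p = 6.35e-11). Zmat3, an RNA-binding regulator, had 71.5 to 89.9 CPM (median 79.5) in diabetic and 34.1 to 45.6 CPM (median 39.0) in non-diabetic mice (log2 fold change 1.04 ± 0.065, edgeR adjusted p = 6.95e-12). In each of these the lowest diabetic library lay above the highest non-diabetic one. Phlda3, an inhibitor of Akt, rose by 1.69 ± 0.14, Psrc1, a spindle protein gene, by 2.99 ± 0.29 and Trp53inp1 by 1.32 ± 0.15. Of other genes that promote cell death, Pmaip1 (Noxa) rose by 0.88 ± 0.12, Bbc3 (Puma) by 0.88 ± 0.17, Fas by 0.41 ± 0.13 and Bax by 0.21 ± 0.070. Sesn2 was at 0.039 ± 0.27, Tigar at -0.15 ± 0.12 and Gdf15 at 0.27 ± 0.18, and none of these passed. On PMX-53 18 members rose with diabetes, where 5.52% of all genes rose and 4.52% fell, and the median was 0.64. The effects on vehicle and on PMX-53 differed at 4 members (Trp53inp1, Sesn1, Btg2 and Gdf15), against 9.42% of all genes. For Cdkn1a they were 3.57 ± 0.23 and 2.79 ± 0.22 (difference, edgeR adjusted p = 0.139). Tmem43, a nuclear envelope gene outside the list, was among those with the smallest p in both settings, at 0.97 ± 0.077 on vehicle and 0.96 ± 0.076 on PMX-53. Of 25 cell cycle genes 10 (40%) rose and 1 (4%) fell, against 20.4% and 19.9% of all genes, and without scaling beyond library totals 6 rose. They include the proliferation marker Mki67 at 0.80 ± 0.28, E2f1 at 1.06 ± 0.16, cyclin D3 (Ccnd3) at 0.58 ± 0.049 and the kinase inhibitor Cdkn2b at 1.79 ± 0.44. The replication helicase genes Mcm2 to Mcm7 lay between -0.10 and 0.051 and did not pass.

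**Figure D3:**
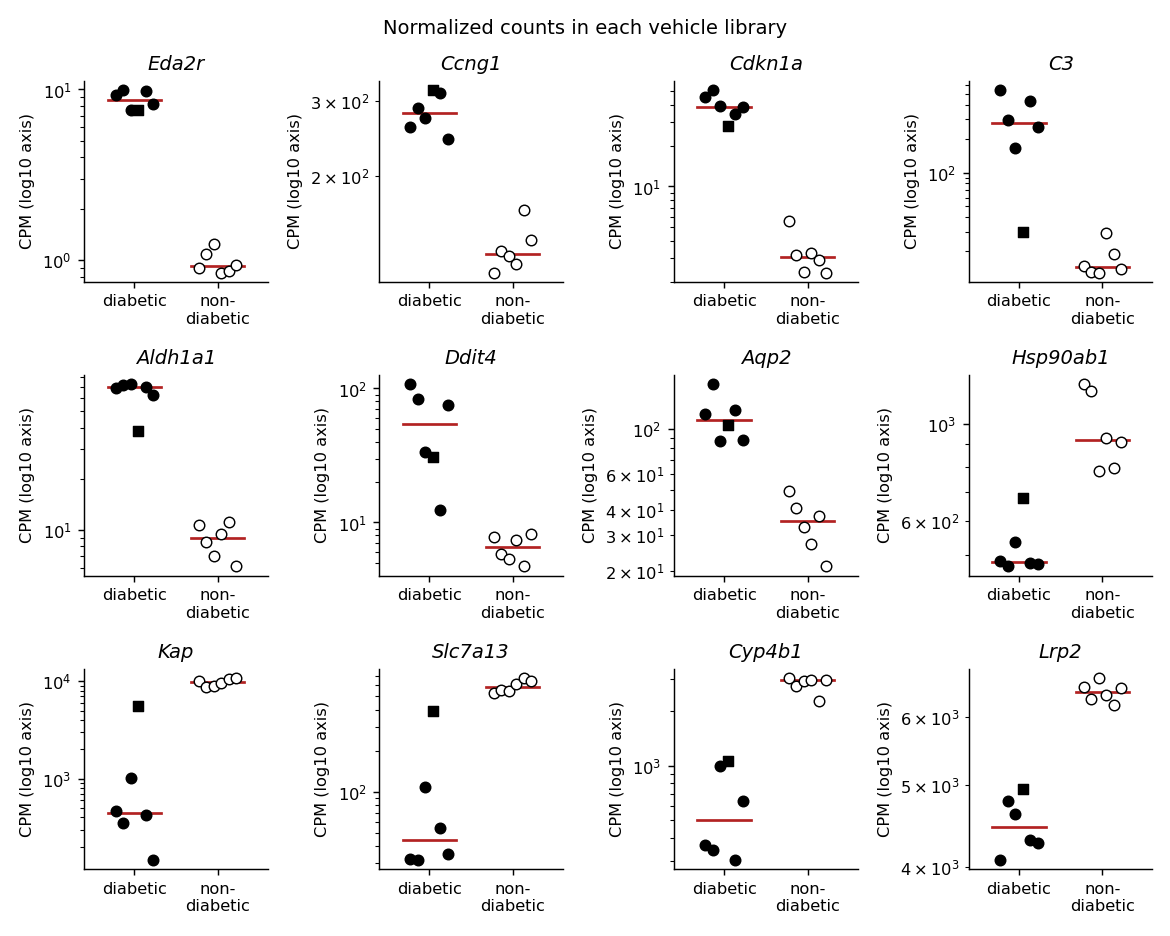
CPM on a log10 axis of 12 genes in each library, diabetic vehicle mice on the left (filled) and non-diabetic vehicle mice on the right (open) of each panel, with a bar at the group median and a square for diabetic replicate 4. Groups are separate in Eda2r, Ccng1 and Cdkn1a. Replicate 4 has the highest diabetic value of Kap (5556 CPM), Slc7a13 (392 CPM) and Cyp4b1 (1058 CPM), which are lower in diabetes.

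In the lists of the unfolded protein response and of heat shock chaperones more genes fell than rose. Of the unfolded protein and integrated stress response list 11 of 24 (45.8%) fell and 5 (20.8%) rose (3 without scaling beyond library totals). Of all genes 19.9% fell and 20.4% rose, so the share that rose was near that of all genes. The list's median log2 fold change was -0.19. Several list members carry the ER stress response element in the promoter. It was found in 7 of 24 list genes with a promoter and in 0.119% of all promoters (both strands). Of those 7 genes, 6 fell. These 7 are among the 19 tested genes with the element, of which 11 fell and 3 rose, at a median of -0.52. The element is in capitals in the upstream stretches of these 7 genes (RefSeq, GRCm38.p6), the last of which did not pass.
Hspa5, chr2:34771985-34772083, plus strand: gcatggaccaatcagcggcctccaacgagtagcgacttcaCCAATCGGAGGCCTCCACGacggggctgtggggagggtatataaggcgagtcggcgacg
Hsp90b1, chr10:86705493-86705694, minus strand: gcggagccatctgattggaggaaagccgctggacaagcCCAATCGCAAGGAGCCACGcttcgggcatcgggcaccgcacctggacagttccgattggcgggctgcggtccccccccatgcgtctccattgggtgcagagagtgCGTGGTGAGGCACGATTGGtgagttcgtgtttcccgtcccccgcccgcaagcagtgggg
Calr, chr8:84847035-84847133, minus strand: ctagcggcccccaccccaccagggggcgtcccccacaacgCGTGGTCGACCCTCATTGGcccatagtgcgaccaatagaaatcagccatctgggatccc
Pdia6, chr12:17266451-17266549, plus strand: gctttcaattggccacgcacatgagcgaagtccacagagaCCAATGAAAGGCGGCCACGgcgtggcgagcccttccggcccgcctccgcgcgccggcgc
Creld2, chr15:88819480-88819578, plus strand: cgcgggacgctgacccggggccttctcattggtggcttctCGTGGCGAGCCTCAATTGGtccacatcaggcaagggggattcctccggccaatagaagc
Canx, chr11:50325760-50325858, minus strand: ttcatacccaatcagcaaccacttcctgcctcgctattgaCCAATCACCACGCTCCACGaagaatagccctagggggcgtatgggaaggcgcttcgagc
Dnajc3, chr14:118937787-118937885, plus strand: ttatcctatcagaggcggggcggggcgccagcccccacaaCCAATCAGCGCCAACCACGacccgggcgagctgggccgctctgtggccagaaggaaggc
Hspa5, the chaperone BiP, had 147 to 434 CPM (median 185) in diabetic and 262 to 527 CPM (median 379.8) in non-diabetic mice (log2 fold change -0.76 ± 0.25, edgeR adjusted p = 0.0183). Pdia3, a disulfide isomerase, had 145 to 208 CPM (median 151) in diabetic and 258 to 284 CPM (median 273) in non-diabetic mice (log2 fold change -0.72 ± 0.078, edgeR adjusted p = 7.13e-08). The groups overlapped for Hspa5 and not for Pdia3. Hsp90b1 fell by 0.57 ± 0.12, Calr (calreticulin) by 0.52 ± 0.087, Pdia6 by 0.53 ± 0.10, Creld2 by 0.73 ± 0.24 and Canx (calnexin) by 0.23 ± 0.053, whereas Dnajc3 was at -0.16 ± 0.066. Xbp1, the transcription factor of this response, fell by 0.71 ± 0.16, and Edem1, which sends misfolded glycoproteins to breakdown, by 0.78 ± 0.088. The members that rose were the asparagine synthetase gene Asns by 1.32 ± 0.21, Trib3 by 0.92 ± 0.26 and Ddit3 (CHOP) by 0.58 ± 0.13, which answer to amino acid shortage, and Herpud1 by 0.48 ± 0.17 and Dnajb9 by 0.34 ± 0.10. On PMX-53 8 of the list fell and 2 rose, Hsp90b1 at -0.55 ± 0.12 and Asns at 0.86 ± 0.21.

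Of 16 cytosolic and mitochondrial chaperones 9 (56.25%) fell and 2 (12.5%) rose, against 19.9% and 20.4% of all genes, with a median of -0.30. Hspd1 and Hspe1, the Hsp60 and Hsp10 pair of the mitochondrial matrix, share a promoter and are read away from each other, so the stretches below are the same bases on opposite strands (chromosome 1, GRCm38.p6). Capitals mark the heat shock element, searched on both strands, here as overlapping matches, which 0.603% of all promoters hold.
Hspd1, chr1:55088019-55088116, minus strand: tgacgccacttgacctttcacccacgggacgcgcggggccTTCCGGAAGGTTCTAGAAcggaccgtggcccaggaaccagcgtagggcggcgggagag
Hspe1, chr1:55088019-55088116, plus strand: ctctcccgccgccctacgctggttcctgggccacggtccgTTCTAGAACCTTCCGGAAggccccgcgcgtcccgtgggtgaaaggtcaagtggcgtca
Hspd1 fell by 0.50 ± 0.081 and Hspe1 by 0.60 ± 0.086 (log2). Hsp90ab1, the constitutive cytosolic Hsp90, had 472 to 678 CPM (median 483) in diabetic and 781 to 1238 CPM (median 920.1) in non-diabetic mice (log2 fold change -0.90 ± 0.12, edgeR adjusted p = 1.87e-06). Its inducible partner Hsp90aa1 fell by 0.92 ± 0.17, Hsph1 fell by 1.31 ± 0.23, Dnaja1 by 0.83 ± 0.15 and Hspa8 by 0.38 ± 0.12. The small heat shock genes Hspb8 and Cryab rose, by 0.97 ± 0.20 and 0.76 ± 0.24. Hspa1a and Hspa1b, the classic heat-induced Hsp70 genes, were at -0.047 ± 0.35 and 0.67 ± 0.40 and did not pass; near-identical copies, they are uncertain one by one. The 64 tested genes with the element were at a median of -0.055, with 10 higher and 12 lower.

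Genes that answer to glucocorticoids were mostly higher in diabetic vehicle mice. Of 19 listed 12 (63.2%) rose and 2 (10.5%) fell, against 20.4% and 19.9% of all genes. The median log2 fold change was 0.65. Ddit4, an inhibitor of mTORC1, had 12.4 to 108 CPM (median 54.6) in diabetic and 4.69 to 8.13 CPM (median 6.59) in non-diabetic mice (log2 fold change 3.13 ± 0.39, edgeR adjusted p = 2.52e-06). Per1, a clock gene that glucocorticoids also raise, had 73.7 to 175 CPM (median 130.5) in diabetic and 19.3 to 47.8 CPM (median 32.4) in non-diabetic mice (log2 fold change 1.86 ± 0.22, edgeR adjusted p = 9.71e-07). Sgk1, the kinase that raises sodium uptake, had 83.8 to 219 CPM (median 111) in diabetic and 29.8 to 83.1 CPM (median 36.0) in non-diabetic mice (log2 fold change 1.46 ± 0.31, edgeR adjusted p = 7.40e-04). The groups did not overlap for any of these, though the lowest diabetic and the highest non-diabetic library were close for Sgk1. Zbtb16 rose by 1.78 ± 0.59, the zinc-binding metallothionein genes Mt1 and Mt2 by 1.34 ± 0.29 and 1.12 ± 0.38 and Tsc22d3 (Gilz) by 0.63 ± 0.23, whereas the receptor gene Nr3c1 fell by 0.57 ± 0.077 and Hsd11b1, which regenerates the hormone, by 0.89 ± 0.17. Fkbp5 was at 0.41 ± 0.32 and did not pass (edgeR adjusted p = 0.322). On PMX-53 the list's median was -0.13, 1 member (Cdkn1a) rose and 0 fell (5 at an unadjusted p under 0.05, 2 by DESeq2 and 2 by limma). The effects differed between vehicle and PMX-53 at 7 of 19 members, against 9.42% of all genes. Among the 7 were Per1 (difference 2.01 ± 0.30, edgeR adjusted p = 5.14e-04), Ddit4 (2.78 ± 0.56, 0.00435) and Sgk1 (1.71 ± 0.43, 0.0177).

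The circadian clock list did not move as a whole. Of 19 genes 5 rose and 3 fell, a share of 42.1% against 40.3% over all genes, and with only the 12 vehicle libraries 8 fell. Besides Per1, the repressor genes Nfil3 and Bhlhe41 rose by 1.64 ± 0.45 and 0.88 ± 0.16 and Ciart by 1.13 ± 0.39, while Bhlhe40 fell by 0.66 ± 0.11 and Per3 by 0.50 ± 0.16. Of the core activators Clock rose by 0.23 ± 0.063, while Arntl was at -0.16 ± 0.46 and Dbp, which swings widely over the day, at -0.65 ± 0.30, neither past the threshold. The time of day of collection is unknown. Immediate early genes were called in 5 of 18 cases (27.8%), all higher, whereas 40.3% of all genes were called and 20.4% were higher. Those called were led by Nr4a1 at 1.17 ± 0.34, Btg2 at 0.89 ± 0.14 and Zfp36 at 0.88 ± 0.24. Fos stood at 0.22 ± 0.47 and Egr1 at -0.59 ± 0.46, and neither passed.

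Transporters of glucose and related sugars rose more often than they fell. Of 17 genes 11 (64.7%) rose and 2 (11.8%) fell, against 20.4% and 19.9% of all genes, at a median log2 fold change of 0.39. Slc5a2, the high-capacity glucose transporter SGLT2 of the early proximal tubule, had 126 to 371 CPM (median 260.4) in diabetic and 309 to 460.2 CPM (median 393) in non-diabetic mice (log2 fold change -0.65 ± 0.20, edgeR adjusted p = 0.0122). Slc5a1, SGLT1 of the later segments, had 66.8 to 134 CPM (median 107) in diabetic and 49.7 to 82.4 CPM (median 54.8) in non-diabetic mice (log2 fold change 0.86 ± 0.18, edgeR adjusted p = 7.85e-04). The early carrier was lower and the late one higher in diabetic mice, and the groups overlapped for both. Slc5a10, a sodium-coupled transporter of mannose and fructose, had 217 to 445 CPM (median 346) in diabetic and 93.4 to 133 CPM (median 107) in non-diabetic mice (log2 fold change 1.65 ± 0.14, edgeR adjusted p = 1.08e-08). On the blood side Slc2a2 (GLUT2) rose by 0.54 ± 0.10 and Slc2a1 (GLUT1) by 0.39 ± 0.11. The fructose transporter gene Slc2a5 rose by 0.81 ± 0.17, the insulin-responsive Slc2a4 by 0.59 ± 0.13 and the urate transporter Slc2a9 by 0.43 ± 0.12. In PMX-53 mice 5 members rose with diabetes. Slc5a2 was at 0.0080 ± 0.20 and Slc5a1 at -0.0031 ± 0.18 there, and the difference between the effects passed for Slc5a1 (edgeR adjusted p = 0.0407) and not for Slc5a2 (edgeR adjusted p = 0.147).

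Genes that answer to glucose or insulin moved both ways, and some did not pass. Txnip, which glucose raises and which restrains glucose uptake, had 422 to 762 CPM (median 702) in diabetic and 308 to 485 CPM (median 336) in non-diabetic mice (log2 fold change 0.90 ± 0.17, edgeR adjusted p = 2.10e-04). The polyol pathway genes Akr1b3 (aldose reductase) and Sord were at -0.11 ± 0.17 and -0.035 ± 0.072, and the hexosamine gene Gfpt1 at 0.12 ± 0.056, none past the threshold. Of 15 genes of both routes 3 rose and 1 fell, so that 26.7% were called, against 40.3% of all genes. Pck1, the first committed enzyme of glucose production, had 3058 to 3919 CPM (median 3548) in diabetic and 1256 to 2483 CPM (median 1409.7) in non-diabetic mice (log2 fold change 1.06 ± 0.23, edgeR adjusted p = 0.00104). G6pc, a later enzyme of that route, was at -0.037 ± 0.23 without passing. Igfbp1, a binding protein that insulin represses, had 21.2 to 87.2 CPM (median 49.1) in diabetic and 6.90 to 26.6 CPM (median 9.51) in non-diabetic mice (log2 fold change 1.98 ± 0.38, edgeR adjusted p = 2.83e-04). Other binding proteins fell, Igfbp3 by 0.83 ± 0.14 and Igfbp4 by 0.81 ± 0.13, as did Igf1 by 0.53 ± 0.21. The receptor gene Insr rose by 0.19 ± 0.067 and Irs1 by 0.65 ± 0.093, with Irs2 at 0.16 ± 0.29. Foxo3, a factor that insulin signalling keeps out of the nucleus, rose by 0.92 ± 0.18, and Foxo1 was at 0.11 ± 0.087. Of the 23 genes of the insulin and IGF list 10 (43.5%) rose and 5 (21.7%) fell, against 20.4% and 19.9% of all genes. Of these, 4 were called in the same direction on PMX-53 (Irs1, Igf2r, Igfbp4 and Ppp1r3c). Txnip was at -0.10 ± 0.17 and Pck1 at -0.13 ± 0.23 on PMX-53, and both differed between the settings (edgeR adjusted p = 0.0114 and 0.0261).

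Of 28 fatty acid oxidation genes 6 (21.4%) rose and 7 (25%) fell, shares near the 20.4% and 19.9% of all genes, and without scaling beyond library totals 13 fell. Both subunits of the mitochondrial trifunctional protein rose, Hadha by 0.57 ± 0.071 and Hadhb by 0.38 ± 0.063, along with the thiolase Acaa2 by 0.61 ± 0.16 and the isomerase Eci1 by 0.54 ± 0.092. The peroxisomal enzymes Ehhadh and Acaa1b fell, by 0.58 ± 0.16 and 0.45 ± 0.17, and so did the short-chain dehydrogenase Acads by 0.59 ± 0.091. Cpt1a, the gate of entry into mitochondria, was at -0.071 ± 0.077 and its partner Cpt2 at -0.24 ± 0.14, without passing. Targets of PPAR alpha, the fatty acid receptor, rose in 8 of 24 cases (33.3%) and fell in 3 (12.5%). With any one of 4 libraries left out (diabetic or non-diabetic replicate 3 or 6), 5 rose. Cyp4a14, a fatty acid hydroxylase, had 338 to 1099 CPM (median 800.0) in diabetic and 19.2 to 210.1 CPM (median 96.3) in non-diabetic mice (log2 fold change 2.88 ± 0.57, edgeR adjusted p = 4.70e-04), and Cyp4a10 rose by 1.05 ± 0.26. The thioesterase genes Acot3, Acot2 and Acot1 rose by 1.89 ± 0.24, 0.67 ± 0.18 and 0.55 ± 0.22. Cyp4a and Acot genes have near-identical copies, so single values are uncertain. Among ketone body genes Bdh1 fell by 1.23 ± 0.20 and Oxct1 by 0.62 ± 0.072. On PMX-53 1 gene of this list rose and 1 fell.

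Of the cholesterol synthesis list 14 of 26 (53.8%) rose and 4 (15.4%) fell, against 20.4% and 19.9% of all genes. The list's median was 0.26. Of its members Hmgcs1 fell by 0.25 ± 0.078 and Idi1 by 0.89 ± 0.21, whereas Fdps rose by 1.53 ± 0.26, Pmvk by 0.61 ± 0.10, the squalene synthase Fdft1 by 0.87 ± 0.085, Sqle by 0.62 ± 0.10 and Lss by 0.40 ± 0.083. Insig1, the sterol sensor, had 42.5 to 64.8 CPM (median 53.04) in diabetic and 21.6 to 35.9 CPM (median 27.7) in non-diabetic mice (log2 fold change 0.96 ± 0.11, edgeR adjusted p = 4.95e-07). Of 21 fatty acid synthesis genes 5 (23.8%) rose and 6 (28.6%) fell, not far from the shares of all genes. Acacb, whose product malonyl-CoA restrains fat oxidation, rose by 0.93 ± 0.10 and Elovl6 by 0.91 ± 0.14, whereas malic enzyme Me1 had 95.7 to 222 CPM (median 123) in diabetic and 283 to 328 CPM (median 298) in non-diabetic mice (log2 fold change -1.17 ± 0.13, edgeR adjusted p = 2.87e-07) and Fasn was at -0.16 ± 0.074. Diabetic PMX-53 mice had 3 higher and 1 lower gene of the cholesterol list.

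In the citric acid cycle list 11 of 26 (42.3%) rose and 2 (7.69%) fell, against 20.4% and 19.9% of all genes. Without scaling beyond library totals 5 rose. Sdhd rose by 0.36 ± 0.046, Cs by 0.25 ± 0.047 and Mdh2 by 0.25 ± 0.060. Pdk1, a kinase that switches off pyruvate dehydrogenase, had 45.3 to 69.9 CPM (median 58.3) in diabetic and 22.0 to 37.0 CPM (median 27.3) in non-diabetic mice (log2 fold change 1.03 ± 0.11, edgeR adjusted p = 1.38e-07), and Pdk2 rose by 0.43 ± 0.10, while Pdk3 fell by 0.59 ± 0.13 and Pdk4 was at 0.65 ± 0.54 (edgeR adjusted p = 0.356). Mitochondrial ribosomal protein genes were called in 35.4% of cases, 12 higher and 5 lower of 48, below the 40.3% of all genes, and without that scaling 3 were higher. Ppargc1a, the coactivator of mitochondrial biogenesis, had 114 to 170.1 CPM (median 143) in diabetic and 80.0 to 98.9 CPM (median 89.6) in non-diabetic mice (log2 fold change 0.65 ± 0.079, edgeR adjusted p = 4.07e-07), and its partner Esrrb rose by 0.94 ± 0.15. Tfam was at 0.049 ± 0.059 and the fission and fusion genes Dnm1l, Opa1 and Mfn1 at 0.079 ± 0.056, 0.0055 ± 0.045 and 0.12 ± 0.056, none past the threshold. The effect on Ppargc1a was 0.14 ± 0.079 on PMX-53 and differed between the settings (edgeR adjusted p = 0.00548).

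Amino acid transporters were called in 83.3% of cases, 15 higher (62.5%) and 5 lower (20.8%) of 24. Of all genes 40.3% were called, 20.4% higher and 19.9% lower, so the share that fell was near that of all genes. Slc38a3, the glutamine transporter that supplies ammonia production, had 68.7 to 166 CPM (median 121) in diabetic and 17.4 to 34.9 CPM (median 22.8) in non-diabetic mice (log2 fold change 2.21 ± 0.25, edgeR adjusted p = 6.85e-07). Slc6a19, the main neutral amino acid transporter of the brush border, rose by 0.68 ± 0.12, its basolateral counterpart Slc7a8 by 0.55 ± 0.16 and Slc43a2 by 0.54 ± 0.10. Slc7a12 had 12.6 to 74.0 CPM (median 38.5) in diabetic and 2.54 to 12.3 CPM (median 6.60) in non-diabetic mice (log2 fold change 2.46 ± 0.46, edgeR adjusted p = 2.74e-04), and Slc7a13, a cystine and glutamate carrier of the S3 segment, had 31.4 to 392 CPM (median 44.5) in diabetic and 530.4 to 684 CPM (median 585) in non-diabetic mice (log2 fold change -2.46 ± 0.48, edgeR adjusted p = 4.05e-04). These last genes thus moved in opposite directions, and diabetic replicate 4 lay at 12.6 CPM of Slc7a12 and 392 CPM of Slc7a13. Slc6a12, the betaine carrier of the medulla, rose by 3.46 ± 0.48 with a non-diabetic median of 0.126 CPM. The cystine transporter pair Slc3a1 and Slc7a9 was at -0.17 ± 0.065, which passed, and 0.17 ± 0.088, which did not. With PMX-53 3 of these genes rose and 1 fell, and the effects differed at 8 genes, Slc38a3 among them (0.93 ± 0.26 on PMX-53, edgeR adjusted p of the difference = 0.0283).

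Enzymes of one-carbon and creatine metabolism moved both ways. Of 22 genes 10 (45.5%) rose and 7 (31.8%) fell, against 20.4% and 19.9% of all genes. Gatm, the first enzyme of creatine synthesis, rose by 0.71 ± 0.15, and Gamt, the second, fell by 0.77 ± 0.16. Cbs, which commits homocysteine to cysteine, had 39.0 to 89.7 CPM (median 52.9) in diabetic and 131 to 164 CPM (median 152) in non-diabetic mice (log2 fold change -1.44 ± 0.14, edgeR adjusted p = 8.91e-08), and Cth, the next step, rose by 0.37 ± 0.078. Shmt1 rose by 0.80 ± 0.078 and Gldc by 1.39 ± 0.29, while Miox, the inositol oxygenase of the proximal tubule, had 468 to 874 CPM (median 756) in diabetic and 781 to 1332 CPM (median 1247) in non-diabetic mice (log2 fold change -0.67 ± 0.13, edgeR adjusted p = 1.80e-04). Of 18 genes of NAD and kynurenine metabolism 4 (22.2%) rose (2 genes without scaling beyond library totals) and 6 (33.3%) fell. Of all genes 20.4% rose and 19.9% fell, so the share that rose was near that of all genes. In the kynurenine route Kynu rose by 2.76 ± 0.21, Afmid fell by 1.16 ± 0.16, Kmo fell by 0.45 ± 0.13, Haao fell by 0.47 ± 0.11 and Qprt by 0.36 ± 0.089. Nampt, which recycles nicotinamide, had 129 to 218 CPM (median 169) in diabetic and 97.8 to 128 CPM (median 98.9) in non-diabetic mice (log2 fold change 0.70 ± 0.11, edgeR adjusted p = 1.57e-05). Kynu and Afmid were called in the same direction on PMX-53, at 1.81 ± 0.21 and -0.61 ± 0.16.

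Transporters of organic ions and drugs were mostly lower. Of 30 tested 16 (53.3%) fell and 5 (16.7%) rose, against 19.9% and 20.4% of all genes. The median log2 fold change was -0.48. Slc22a12, the urate transporter URAT1, had 327 to 683 CPM (median 446) in diabetic and 1048 to 1279.7 CPM (median 1192) in non-diabetic mice (log2 fold change -1.31 ± 0.14, edgeR adjusted p = 7.36e-08). Slc47a1, the exporter MATE1 of the brush border, had 297 to 467 CPM (median 364) in diabetic and 557 to 644 CPM (median 610.1) in non-diabetic mice (log2 fold change -0.69 ± 0.083, edgeR adjusted p = 3.40e-07). Both sets of libraries were apart for these genes. Slco1a1, an organic anion carrier that androgens raise, had 1.33 to 123 CPM (median 5.19) in diabetic and 178 to 422 CPM (median 255) in non-diabetic mice (log2 fold change -3.48 ± 0.74, edgeR adjusted p = 8.35e-04), Slc22a7 (OAT2) fell by 2.83 ± 0.42 and Slc22a2 (OCT2) by 0.65 ± 0.12. Slc22a30 fell by 2.16 ± 0.29 and Slc22a28 fell by 2.06 ± 0.26, while Slc22a29 rose by 2.17 ± 0.34, but these 3 are close copies and uncertain one by one. The basolateral anion exchangers Slc22a6 (OAT1) and Slc22a8 (OAT3) were at -0.32 ± 0.13, not called, and -0.49 ± 0.16, called. Export pumps differed: Abcc4 rose by 0.64 ± 0.12 and Abcb1b by 0.60 ± 0.16, Abcb1a fell by 0.58 ± 0.17 and Abcg2 was at 0.026 ± 0.058. Markers of the S3 segment, where several of these carriers sit, summed to 331 to 1391 CPM in diabetic and 1889 to 2340.2 CPM in non-diabetic mice, and their part in this result was not tested. On PMX-53 4 of the transporters fell and 3 rose.

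Cytochromes P450 and carboxylesterases, which oxidise and hydrolyse drugs and lipids, fell in 16 of 27 cases (59.3%) and rose in 5 (18.5%). Of all genes 19.9% fell and 20.4% rose, and the list's median was -0.80. Ces1f had 105 to 375 CPM (median 128) in diabetic and 494 to 586 CPM (median 522) in non-diabetic mice (log2 fold change -1.59 ± 0.23, edgeR adjusted p = 1.52e-05). Cyp2e1, which oxidises ethanol and ketones, had 399.8 to 835 CPM (median 480.4) in diabetic and 922 to 1130.2 CPM (median 1006) in non-diabetic mice (log2 fold change -0.88 ± 0.14, edgeR adjusted p = 2.59e-05). For both genes the diabetic range was wide. Cyp2d12 fell by 2.78 ± 0.35, Cyp2j13 fell by 2.31 ± 0.32 and Ces2h by 2.88 ± 0.30, and Cyp2d26 rose by 1.54 ± 0.18. Many of these genes depend on androgens in the mouse kidney, and the androgen-regulated gene Kap stood at 145 to 5556 CPM in diabetic against 8828 to 10875 CPM in non-diabetic libraries; its part in this result was not tested. On PMX-53 8 of the list fell and 4 rose with diabetes, and 12 were called in the same direction in both settings.

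Conjugating enzymes rose more often than they fell. Of 35 transferases 18 (51.4%) rose and 7 (20%) fell, against 20.4% and 19.9% of all genes, so the share that fell was near that of all genes. The glutathione transferase Gsta2 had 143 to 253 CPM (median 220.3) in diabetic and 27.2 to 65.5 CPM (median 39.4) in non-diabetic mice (log2 fold change 2.32 ± 0.20, edgeR adjusted p = 2.97e-08). Mgst1, its membrane-bound relative, had 40.5 to 62.4 CPM (median 53.9) in diabetic and 21.3 to 29.2 CPM (median 25.1) in non-diabetic mice (log2 fold change 1.07 ± 0.10, edgeR adjusted p = 6.59e-09). Gsto1 rose by 1.40 ± 0.17, Gsta4 by 1.55 ± 0.25 and Gstm1 by 0.78 ± 0.085, whereas Gstp1 was at -0.14 ± 0.066 and Gsta3 at -0.0027 ± 0.083 without passing. The Ugt1a genes, glucuronosyltransferases of bilirubin and drugs, rose furthest. Ugt1a2 had 19.1 to 424 CPM (median 286) in diabetic and 1.44 to 6.05 CPM (median 2.09) in non-diabetic mice (log2 fold change 6.48 ± 0.60, edgeR adjusted p = 6.91e-08), Ugt1a10 rose by 5.30 ± 0.58 and Ugt1a1 by 3.30 ± 0.34. These genes share their last exons, so their single values are uncertain. On PMX-53 Ugt1a2 was at 0.54 ± 0.73, Ugt1a1 at 0.089 ± 0.40 and Ugt1a10 at 3.15 ± 0.66. The difference between the effects passed for Ugt1a2 and Ugt1a1 (edgeR adjusted p = 0.00103 and 8.74e-04) and not for Ugt1a10 (0.241). Elsewhere in the list Ugt8a fell by 1.27 ± 0.11 and Ugt3a2 fell by 0.72 ± 0.074. Targets of Nrf2, the regulator of antioxidant genes, did not move together: 10 of 25 (40%) rose and 7 (28%) fell. Ephx1, Gsta2, Cbr1 (2.11 ± 0.23) and Cbr3 (2.15 ± 0.37) rose, whereas both subunits of glutamate cysteine ligase fell, Gclc by 0.51 ± 0.14 and Gclm by 0.61 ± 0.10, and Hmox1 and Nqo1 were at -0.56 ± 0.23 and 0.41 ± 0.17. Of 23 antioxidant and oxidase genes 6 (26.1%) rose and 5 (21.7%) fell, near the 20.4% and 19.9% of all genes, and without scaling beyond library totals 3 rose. Single members were Sod1 at -0.30 ± 0.064, Cat at -0.21 ± 0.066 and Prdx3 at 0.24 ± 0.048, all past the threshold, and Sod2 at 0.029 ± 0.058, not past it. The oxidase gene Nox4 was at 0.066 ± 0.070 (edgeR adjusted p = 0.472). The uncoupling protein gene Ucp2 rose by 0.82 ± 0.20. Of the metallothionein and iron list 8 of 16 (50%) rose and 3 (18.75%) fell. The ferroxidase Cp rose by 1.26 ± 0.19 and Lcn2 (NGAL) by 2.63 ± 0.46, while the iron importer Slc11a2 fell by 0.53 ± 0.077.

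Salt transport genes rose more often than they fell. In the list of sodium, potassium and chloride transport 17 of 27 (63.0%) rose and 3 (11.1%) fell, against 20.4% and 19.9% of all genes. Without scaling beyond library totals 11 rose. All 3 subunits of the epithelial sodium channel rose, Scnn1a by 0.58 ± 0.11, Scnn1b by 0.61 ± 0.10 and Scnn1g by 0.53 ± 0.11. The kinase gene Stk39 (SPAK), which switches on the salt cotransporters, had 27.5 to 44.5 CPM (median 33.3) in diabetic and 18.4 to 24.1 CPM (median 22.1) in non-diabetic mice (log2 fold change 0.69 ± 0.10, edgeR adjusted p = 4.58e-06). The cotransporter of the thick limb, Slc12a1, rose by 0.45 ± 0.18, and that of the distal tubule, Slc12a3, was at 0.023 ± 0.086 (edgeR adjusted p = 0.855). Slc9a3, the proximal sodium-proton exchanger, fell by 0.25 ± 0.085 and Umod (uromodulin) by 0.36 ± 0.12. Stk39, Scnn1b, Scnn1g, Wnk1, Wnk4 and Slc26a6 were called in the same direction on PMX-53. Principal cell markers summed to 261 to 424 CPM in diabetic and 146 to 201 CPM in non-diabetic mice, and those of medulla and papilla to 162 to 207 CPM in diabetic and 136 to 183 CPM in non-diabetic mice; their part in these rises was not tested, and in bulk tissue a change in cell number and in RNA per cell cannot be told apart.

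Of 15 genes of water handling 8 (53.3%) rose and 1 (6.67%) fell, against 20.4% and 19.9% of all genes. Aqp2, the vasopressin-regulated channel, had 87.4 to 166 CPM (median 111) in diabetic and 21.0 to 49.1 CPM (median 35.0) in non-diabetic mice (log2 fold change 1.72 ± 0.29, edgeR adjusted p = 7.77e-05), and its basolateral partner Aqp3 rose by 0.54 ± 0.10 and the receptor gene Avpr2 by 0.61 ± 0.15. Aqp1, the channel of the proximal tubule, was at 0.10 ± 0.081 (edgeR adjusted p = 0.320), Aqp11 fell by 0.26 ± 0.068 and Nfat5, the osmotic stress regulator, was at 0.091 ± 0.052. In the calcium, phosphate and vitamin D list 11 of 27 (40.7%) rose and 5 (18.5%) fell. The count that fell was 8 without diabetic replicate 4, 8 by DESeq2, 8 by limma and 8 without scaling beyond library totals. The calcium carriers of the distal tubule given next were among those that rose. Calb1 (calbindin) had 295 to 445 CPM (median 309) in diabetic and 131 to 283 CPM (median 150.3) in non-diabetic mice (log2 fold change 1.04 ± 0.19, edgeR adjusted p = 1.30e-04). Trpm6, a magnesium channel, rose by 0.95 ± 0.18, S100g by 0.83 ± 0.18, Trpv5 by 0.78 ± 0.14 and Trpv6 by 0.86 ± 0.26. On PMX-53 these 5 genes were at 0.82 ± 0.18, 0.68 ± 0.18, 0.66 ± 0.18, 0.70 ± 0.14 and 0.92 ± 0.27 and all passed. Kl (klotho), the co-receptor of FGF23, had 417 to 554 CPM (median 494) in diabetic and 705 to 794 CPM (median 745) in non-diabetic mice (log2 fold change -0.60 ± 0.064, edgeR adjusted p = 5.61e-08), and the parathyroid hormone receptor gene Pth1r fell by 0.57 ± 0.11. Kl stood at 0.17 ± 0.063 on PMX-53, and the difference between the effects passed (edgeR adjusted p = 1.32e-05). Cyp27b1, which activates vitamin D, had 11.5 to 127 CPM (median 28.2) in diabetic and 3.99 to 9.91 CPM (median 7.84) in non-diabetic mice (log2 fold change 2.59 ± 0.52, edgeR adjusted p = 4.68e-04), and Cyp24a1, which breaks it down, was at -1.07 ± 0.44 without passing. Gc, the vitamin D binding protein of plasma, had 26.2 to 163 CPM (median 121) in diabetic and 8.94 to 18.4 CPM (median 10.7) in non-diabetic mice (log2 fold change 3.20 ± 0.39, edgeR adjusted p = 1.99e-06).

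Of 13 genes of receptor-mediated protein uptake 3 (23.1%) rose and 7 (53.8%) fell, against 20.4% and 19.9% of all genes. By edgeR without scaling beyond library totals 0 rose (0 at an unadjusted p under 0.05; with scaling 3 by DESeq2 and 3 by limma). With only the 12 vehicle libraries 1 rose and 4 fell, and 1 rose without non-diabetic replicate 1 or 3. Besides Lrp2, its adaptor Dab2 fell by 0.35 ± 0.065, the chaperone Lrpap1 by 0.37 ± 0.086 and Fcgrt, which recycles albumin and IgG, by 0.39 ± 0.12. Cubn (cubilin), the partner of Lrp2, rose by 0.18 ± 0.068. Proteasome genes were called in 23.5% of cases and lysosome and autophagy genes in 42.3%, against 40.3% of all genes. Among the second list Ulk1, the kinase that starts autophagy, rose by 0.50 ± 0.074, Ctsd by 0.48 ± 0.071 and Hexa by 0.61 ± 0.10.

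Genes of the interferon response were called in 34.2% of cases, fewer than among all genes, but those that rose included the classic Ifit group. Of 38 members 10 rose and 3 fell. The interferon-stimulated response element was found on either strand in 18 of 28 list genes with a promoter, against 3.44% of all promoters. It is in capitals in the upstream stretches of 4 members that rose (RefSeq, GRCm38.p6); in Bst2 the capitals are overlapping matches.
Ifit1, chr19:34640745-34640853, plus strand: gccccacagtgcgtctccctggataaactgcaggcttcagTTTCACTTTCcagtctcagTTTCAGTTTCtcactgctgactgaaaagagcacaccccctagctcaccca
Ifit3, chr19:34583333-34583456, plus strand: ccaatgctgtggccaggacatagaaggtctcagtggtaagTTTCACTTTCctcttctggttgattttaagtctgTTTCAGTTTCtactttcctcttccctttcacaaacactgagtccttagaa
Bst2, chr8:71537547-71537642, minus strand: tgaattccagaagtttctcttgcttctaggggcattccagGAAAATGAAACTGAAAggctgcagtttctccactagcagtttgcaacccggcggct
Cxcl10, chr5:92349053-92349139, minus strand: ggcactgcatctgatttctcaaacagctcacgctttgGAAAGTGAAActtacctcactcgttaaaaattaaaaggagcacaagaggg
Of the 18 list genes with the element 6 rose and 1 fell, so most list genes that hold it did not pass. Over all 413 tested genes with the element 101 rose and 94 fell, at a median of 0.025. Ifi27 had 20.2 to 38.0 CPM (median 31.1) in diabetic and 12.6 to 14.3 CPM (median 13.1) in non-diabetic mice (log2 fold change 1.19 ± 0.10, edgeR adjusted p = 2.47e-09). Irf7, a factor that interferon induces, had 7.72 to 16.7 CPM (median 14.2) in diabetic and 5.66 to 7.49 CPM (median 6.03) in non-diabetic mice (log2 fold change 1.11 ± 0.14, edgeR adjusted p = 7.15e-07). Ifit1 rose by 1.13 ± 0.25, Ifit2 by 1.24 ± 0.17, Ifit3 by 1.11 ± 0.22 and Bst2 by 1.09 ± 0.17; Ifit3 and Ifit3b are near-identical copies. Equally typical genes did not pass, Isg15 at 0.18 ± 0.24, Rsad2 at -0.22 ± 0.12 and Oasl2 at 0.18 ± 0.15. On PMX-53 0 of the list rose with diabetes by edgeR (1 at an unadjusted p under 0.05, 1 by DESeq2 and 1 by limma) and 1 fell, and the effects differed at 10 genes, Ifi27 (0.10 ± 0.10 on PMX-53) and Irf7 (0.12 ± 0.14) among them.

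Of 21 antigen presentation genes 5 (23.8%) rose and 5 (23.8%) fell, near the 20.4% and 19.9% of all genes, and without scaling beyond library totals 3 rose. The class I genes B2m, H2-K1 and H2-D1 rose by 0.77 ± 0.10, 0.42 ± 0.092 and 0.28 ± 0.071, whereas the class II genes H2-Aa, H2-Ab1 and H2-Eb1 fell by 0.38 ± 0.088, 0.31 ± 0.12 and 0.47 ± 0.11 and their regulator Ciita by 0.98 ± 0.20. Of 12 macrophage and dendritic cell markers 1 (8.33%) rose and 3 (25%) fell, against 20.4% and 19.9% of all genes. They summed to 136 to 178 CPM in diabetic and 151 to 205 CPM in non-diabetic mice. The 3 that fell were Itgax at -1.57 ± 0.20, Csf1r at -0.54 ± 0.15 and Cx3cr1 at -0.69 ± 0.20. C1qa, Adgre1 and Cd68 were at 0.043 ± 0.14, -0.60 ± 0.28 and -0.12 ± 0.21, not called. The part of these markers in the fall of the class II genes was not tested. Markers of T and NK cells had 0.825 to 1.66 CPM in diabetic and 0.911 to 1.89 CPM in non-diabetic mice in sum, and those of neutrophils and mast cells 0.861 to 2.94 CPM in diabetic and 1.43 to 2.67 CPM in non-diabetic mice. Of 22 chemokine, cytokine and adhesion genes 5 (22.7%) rose and 5 (22.7%) fell, likewise near the shares of all genes. Nfkbia, a target and brake of NF-kappa B, had 20.5 to 46.8 CPM (median 33.6) in diabetic and 11.7 to 17.8 CPM (median 15.5) in non-diabetic mice (log2 fold change 1.13 ± 0.17, edgeR adjusted p = 2.16e-05), while the chemokine genes Cxcl14 and Cx3cl1 fell by 1.37 ± 0.21 and 0.70 ± 0.12 and Tnfsf10 (TRAIL) fell by 1.21 ± 0.20. Icam1 and Vcam1 were at 0.29 ± 0.12 and -0.40 ± 0.20 and did not pass.

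Of 35 BMP, TGF-beta and Wnt signalling genes 9 (25.7%) rose and 7 (20%) fell, near the 20.4% and 19.9% of all genes. The BMP antagonist Grem1 rose by 3.15 ± 0.44, Bmp3 by 2.37 ± 0.25 and the Wnt receptor Lgr4 by 0.97 ± 0.12, and the BMP targets Id2 and Smad7 fell by 1.06 ± 0.14 and 0.85 ± 0.087. Tgfb1 fell by 0.56 ± 0.12. Wnt7b and Wnt4, ligands of the collecting duct and medulla, rose by 1.68 ± 0.51 and 1.35 ± 0.51. Of 26 nephron transcription factors 5 (19.2%) rose and 7 (26.9%) fell, not far from these shares, and without diabetic replicate 3 8 rose. The following were picked for their known place in the nephron. The proximal tubule factors Hnf4a and Hnf4g fell by 0.35 ± 0.075 and 0.90 ± 0.11. Tfcp2l1, Grhl2 and Gata3, factors of the distal tubule and collecting duct, rose by 0.44 ± 0.077, 0.54 ± 0.15 and 0.38 ± 0.11, and the epithelial factor Ehf by 1.17 ± 0.23. Wt1 of podocytes and Pax2 and Pax8 of the nephron lineage were at 0.068 ± 0.15, -0.011 ± 0.10 and 0.15 ± 0.089, not called. In the prostaglandin list 8 of 15 (53.3%) rose and 4 (26.7%) fell. The synthases Ptgs1 and Ptges were at 0.61 ± 0.12 and 0.43 ± 0.11 and the thromboxane synthase Tbxas1 at -0.87 ± 0.15.

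The labelled tissue was checked with cell type markers. Of 13 podocyte markers 0 rose and 0 fell by edgeR, with 1 at an unadjusted p under 0.05, 0 called by DESeq2 and 1 by limma; they summed to 289 to 339 CPM in diabetic and 299.6 to 351 CPM in non-diabetic mice. Nphs1 (nephrin) was at 0.16 ± 0.11. Endothelial markers were at 1 higher and 4 lower of 12, with the VEGF receptor Kdr at -0.73 ± 0.084. Fibroblast markers fell in 4 of 8 cases, Col1a1 by 0.77 ± 0.20 and Col3a1 by 0.70 ± 0.22, and on PMX-53 Col1a1 stood at 0.39 ± 0.19, a difference that passed (edgeR adjusted p = 0.0130). Markers of the early proximal tubule summed to 12924 to 15270 CPM in diabetic and 15526 to 18070.3 CPM in non-diabetic mice, the highest sums of any cell type list, with 5 higher and 4 lower of 10 (3 higher without diabetic replicate 6 and 3 without scaling beyond library totals). Parietal epithelial markers rose in 4 of 6 cases, among them Cdh6 by 1.34 ± 0.27 and Cldn1 by 0.41 ± 0.12. In the distal nephron 8 of 8 principal cell markers, 5 of 7 distal tubule markers and 5 of 9 intercalated cell markers rose. Of 7 thick ascending limb markers 3 (42.9%) rose and 2 (28.6%) fell, at a median of -0.17. Of all genes 20.4% rose and 19.9% fell. Mesangial and smooth muscle markers were called in 30% of cases. Of 10 tested 2 (20%) rose and 1 (10%) fell, against 20.4% and 19.9% of all genes. Pdgfrb was at -0.83 ± 0.15, Gata3, also on this list, at 0.38 ± 0.11 and Ren1 at -0.10 ± 0.29. Of 7 erythroid markers 6 fell, among them the globin gene Hbb-bs by 1.08 ± 0.29, and Slc4a1, which intercalated cells also express, rose by 0.62 ± 0.19. Diabetic replicate 3, set against the 6 erythroid markers that differed 2-fold in the fit without it, lay at a median of 14.3% of the others' difference, and 6 fell without it. Of 6 B and plasma cell markers 4 fell, among them Jchain, which fell by 2.07 ± 0.31. Of other tissues, the adipocyte genes Adipoq and Lep and the mast cell genes Cpa3, Cma1, Mcpt4 and Tpsb2 had no count in the 12 libraries. The perirenal fat list as a whole summed to 17.9 to 33.2 CPM in diabetic and 24.98 to 47.2 CPM in non-diabetic mice, and of its 2 tested members Car3 fell by 3.16 ± 0.52 and Fabp4 was at 0.19 ± 0.13, not called. Adrenal markers summed to 2.35 to 4.15 CPM in diabetic and 2.11 to 2.74 CPM in non-diabetic mice and those of urothelium to 1.72 to 4.37 CPM in diabetic and 0.735 to 3.32 CPM in non-diabetic mice.

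**Figure D4:**
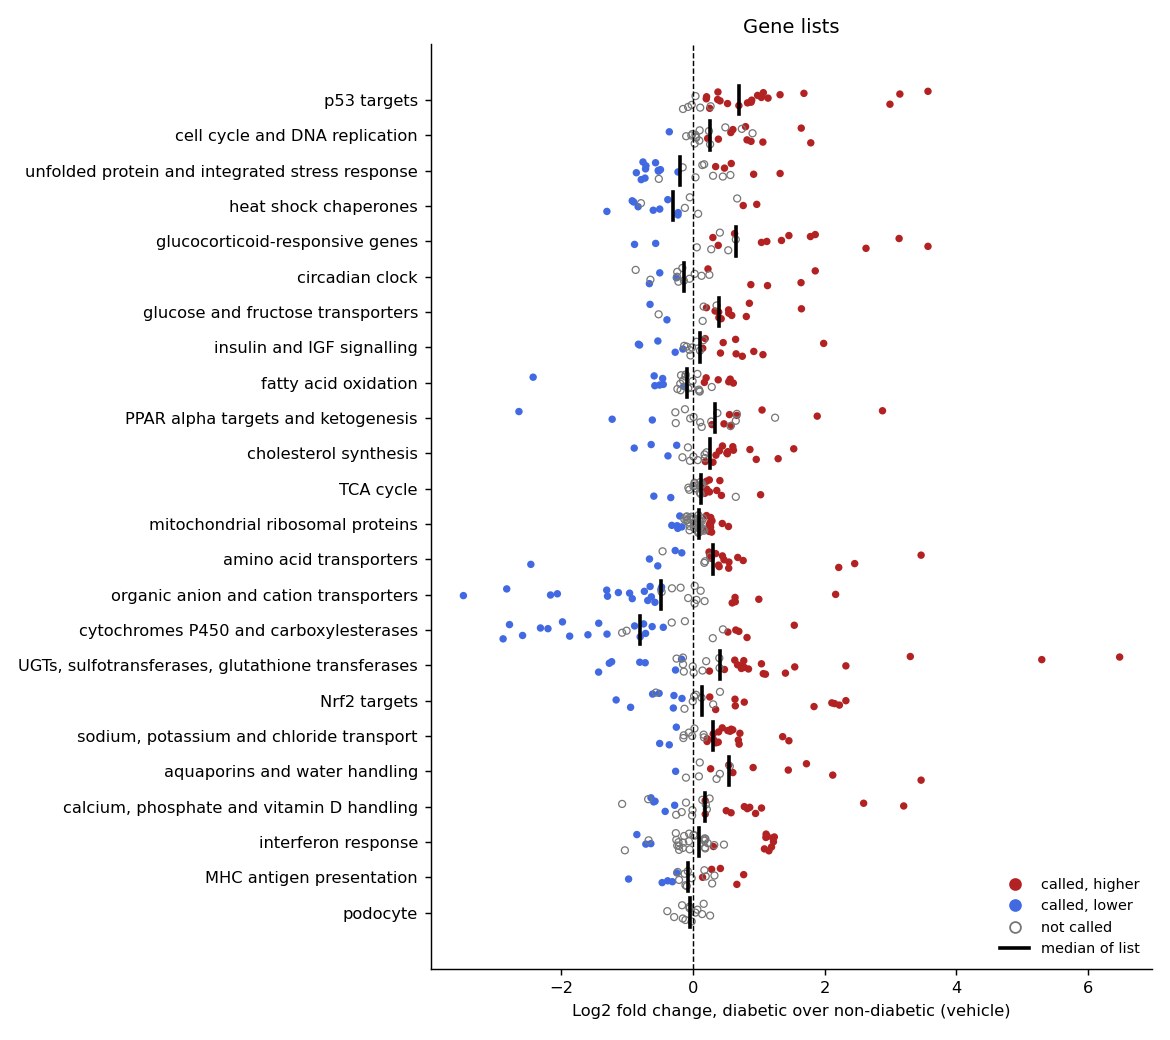
Log2 fold change with diabetes on vehicle of every tested member of 24 gene lists, one point per gene, filled where the gene passed the threshold and open where it did not, with a bar at the list's median. The median is 0.70 for p53 targets, -0.80 for cytochromes P450 and carboxylesterases and -0.0014 over all genes tested (dashed line).

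Called genes were spread over the genome and over gene lengths. With genes cut into 5 equal classes by average CPM, in the lowest class 27.2% were called, and in the highest class 53.4%. The median size of the fold change ran the other way, 0.38 in the lowest and 0.17 in the highest class (log2). By length of the longest transcript, also in 5 classes, the shortest class had 668 higher and 465 lower genes and the longest class 615 and 770, with medians of 0.042 and -0.015. Of 13433 protein-coding genes 42.8% were called, of 309 long intergenic RNAs 33.3%, with 41 higher and 62 lower. Among 48 small nucleolar RNAs 22.9% were called, 10 higher and 1 lower. Of all genes 40.3% were called, 20.4% higher and 19.9% lower. On single autosomes 36.2 to 46.0% of genes were called. Of 16 tested mitochondrially encoded genes 10 (62.5%) rose.

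Set beside diabetic and non-diabetic mice on PMX-53, the vehicle comparison had more called genes. On PMX-53 1587 genes (10.0%) were called, 872 higher and 715 lower. In both 1190 genes were called in the same direction, 18.7% of the calls on vehicle and 75.0% of those on PMX-53, and 20 were called in opposite directions. The difference of the effects, tested in the same fit, was called at 1489 genes (9.42%), of which 1386 were also called on vehicle. In 1363 of those the vehicle effect was the larger in size. Without diabetic replicate 4 the difference was called at 2242 genes. The other 4977 genes called on vehicle did not pass that test. Of the 2-fold genes 382 of 934 passed it.

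Genes called in both settings with the smallest p were, besides the p53 targets, Ly6e, which fell by 1.53 ± 0.13 on vehicle and by 1.47 ± 0.13 on PMX-53, the claudin gene Cldn10 (-0.56 ± 0.071 and -0.56 ± 0.070), the flavin monooxygenase Fmo5 (-1.62 ± 0.13 and -1.01 ± 0.13) and the chromatin gene Baz1b (-0.36 ± 0.040 and -0.35 ± 0.040). Ly6e had 76.4 to 113 CPM (median 94.3) in diabetic and 221 to 351 CPM (median 263) in non-diabetic mice, and the groups did not overlap. Genes with the smallest p for the difference between the settings included Nnt, Acad10, Wdfy1, Kl and B4galt5, as well as Rdh16, a retinol dehydrogenase (0.73 ± 0.088 on vehicle and -0.22 ± 0.089 on PMX-53), and Piga, the first enzyme of GPI anchor synthesis (0.98 ± 0.10 and -0.051 ± 0.10). Fam81a stood at -0.74 ± 0.10 and 0.26 ± 0.091, and the serine protease gene Tmprss9, with 0 to 0.829 CPM in diabetic vehicle mice, at -4.07 ± 0.36 and -0.58 ± 0.25.

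**Figure D5:**
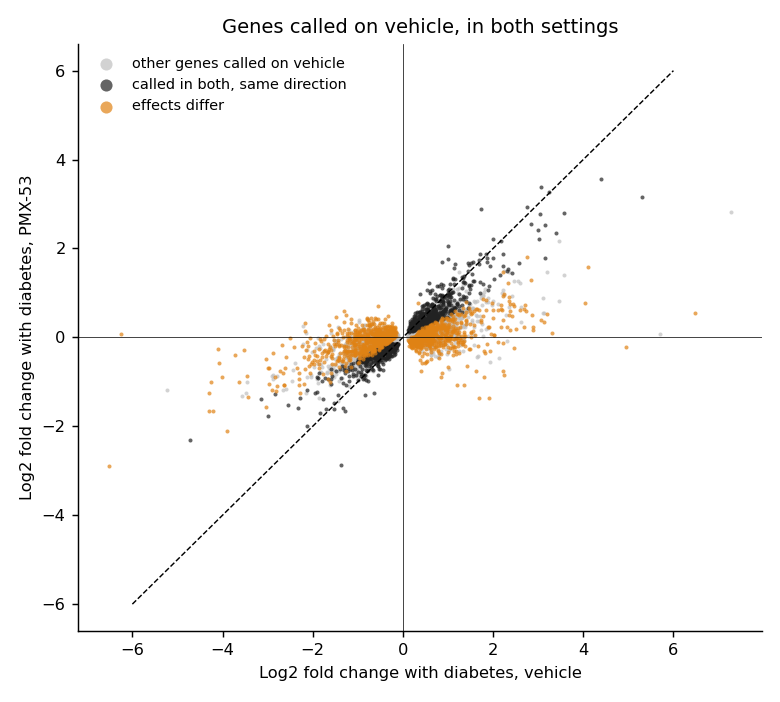
Log2 fold change with diabetes on vehicle (horizontal axis) against that on PMX-53 (vertical axis) for the 6363 genes called on vehicle, one point per gene. Dark points are the 1190 genes called in both in the same direction, coloured points the 1386 whose effects differed (both classes hold 163 genes, drawn as coloured), and the dashed line marks equal effects.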

How the data were processed

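Total RNA of mouse renal cortex (200 ng per library) went through NEBNext ribosomal RNA depletion and a strand-marking NEBNext library kit, per the labels' protocols. The authors deposited whole-number gene counts for 24 libraries, 6 per group. Reads were demultiplexed with bcl2fastq 2.20.0.422 and aligned with STAR to GRCm38, per the submitters' processing notes. The counting tool, its strand setting and its annotation are unknown, so overlapping and antisense genes are uncertain. No 2 libraries of a group agreed within sampling noise (lowest chi-square per degree of freedom 5.65 over 60 pairs).

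Counts were filtered with filterByExpr (minimum count 10 over the 4 groups) and scaled by TMM, and all 24 libraries entered 1 quasi-likelihood fit (edgeR 4.0.16, limma 3.58.1, R 4.3.3) without covariates. Contrasts were diabetes on vehicle, diabetes on PMX-53 and their difference, with Benjamini-Hochberg adjustment over 15808 genes and a threshold of 0.05. Values after ± are standard errors of the log2 fold change, taken as its size over the square root of F. The fit was also run on simulated counts with known changes, whose outcome is not given here. Gene positions come from GENCODE M21 and promoters from RefSeq (GRCm38.p6). Motif matches were sought on both strands. The E-box, also searched, was in 5 of 16 clock list genes with a promoter (3 rose, 0 fell) and 7.15% of all promoters. The D-box was in 1 of 16 (1 fell) and 0.938%. The antioxidant response element core was in 8 of 24 Nrf2 targets (2 rose, 3 fell) and 12.4% of promoters. The sterol regulatory element was in 1 of 18 cholesterol synthesis genes (1 fell) and 0.551%. The motif letters searched came from general knowledge and are not printed.

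Alternatives covered scaling, filtering, tool (DESeq2 1.42.0, limma voom), libraries in the fit, depth, robust estimation and the replicate block. The members and gene lists were chosen with earlier results of these data known. So were the p53 decamer, E-box, D-box, antioxidant and sterol elements. The ER stress, heat shock and interferon elements were chosen after values were seen. Named genes are the 12 per direction with the smallest p, the 8 with the highest CPM, the 6 with the smallest p in both settings and in the difference, and members of each list. In the lists, up to 6 members with the smallest p and those needed to say what did not pass were to be named, and further members were picked for their known role after their values were seen. A few genes chosen this way are not reported here. Predicted genes, small RNAs, pseudogenes and receptor segments were passed over in the choice by p or CPM, as were genes with an average log2 CPM under 1.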

Additional observations from a re-analysis of the deposited data

Results flagged for a closer look

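In 19 of 134 groups of 6 libraries looked at (each gene given by library in the results, and 4 library properties), 1 library stood far from the rest by Dixon's test at the 95% level. Chance gives about 1 in 20 groups. Diabetic replicate 4 was that library in 9 of the 19. It was the highest diabetic library for Kap at 5556 CPM (next library 1007), Slco1a1 at 123 CPM (next library 19.2), Slc7a13 at 392 CPM (next library 108) and Lpl at 206 CPM (next library 87.2). The same held for Hykk at 330.1 CPM (next library 228), Cbs at 89.7 CPM (next library 53.8), Me1 at 222 CPM (next library 137) and Hsp90ab1 at 678 CPM (next library 538). All 8 genes were lower in diabetes. It was the lowest diabetic library for Aldh1a1, which was higher in diabetes, at 38.3 CPM (next library 62.1).

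Among the other diabetic libraries, replicate 2 was highest for Sgk1 at 219 CPM (next library 122) and replicate 1 lowest for Txnip at 422 CPM (next library 640.3). Of the non-diabetic libraries, replicate 5 was highest for Calb1 at 283 CPM (next library 172), Slc5a1 at 82.4 CPM (next library 57.9) and Txnip at 485 CPM (next library 351), and lowest for Slc34a1 at 3486 CPM (next library 4619). Non-diabetic replicate 1 was highest for Sgk1 at 83.1 CPM (next library 48.3) and Igfbp1 at 26.6 CPM (next library 12.3), and replicate 4 for C3 at 29.3 CPM (next library 19.0) and Ugt1a2 at 6.05 CPM (next library 2.43).

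The effect of diabetes differed between vehicle and PMX-53 in 35 of the 52 genes for which that comparison is given, by edgeR's test of the difference. Several of these genes were named because of that test, so the count is a description. Values are log2 fold changes on vehicle minus those on PMX-53. The positive differences above 1 were Ugt1a2 (5.93), C3 (3.28), Ugt1a1 (3.21), Ddit4 (2.78), Per1 (2.01), Sgk1 (1.71), Aldh1a1 (1.56), Slc38a3 (1.28), Wdfy1 (1.26), Pck1 (1.198), Aldoc (1.197), Nnt (1.13), Ifi27 (1.10) and Piga (1.03). Smaller positive differences were Irf7 (0.99), Txnip (0.99), Kynu (0.95), Rdh16 (0.95), Slc5a1 (0.86), Ephx1 (0.76), Sesn1 (0.74), Trp53inp1 (0.67), Glud1 (0.64), Btg2 (0.60) and Ppargc1a (0.51). Differences below 0 were Tmprss9 (-3.50), Acad10 (-2.22), B4galt5 (-1.17), Col1a1 (-1.15), Ide (-1.001), Fam81a (-0.99), Gdf15 (-0.82), Kl (-0.77), Fmo5 (-0.61) and Arhgap10 (-0.49).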

How the results depend on the processing

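The number of genes called between diabetic and non-diabetic vehicle mice (6363) ran from 5403 with only the 12 vehicle libraries to 6529 with limma voom over the 11 alternatives that kept every vehicle library, and from 5729 to 6796 when each vehicle library was left out in turn. Without scaling beyond library totals 1802 genes were higher, so that 31.2% of calls were higher in place of 50.7%, 871 genes were called on PMX-53 and 652 in both settings in the same direction. That setting moved the median log2 fold change of all genes by -0.092. With no filter on low counts 1521 genes were called at 2-fold or more, in place of 934. With limma voom 2626 genes were called on PMX-53 and 2281 for the difference of the effects. Leaving out 1 vehicle library moved the count of that difference between 1022 and 2242, and 2242 was the value without diabetic replicate 4. The causes were not tested.

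Of 362 genes named, 303 were called. No called gene changed sign in any of the 23 alternatives, 267 kept the call in all those that gave a value, and 36 lost it at least once. Leaving out 1 library ended the call of 22 of them, 2 to 14 genes at a time (2 without diabetic replicate 4). They were Acaa1b, Acot1, Bax, Ciart, Creld2, Cubn, Gpx3, H2-Ab1, Havcr1, Herpud1, Igf1, Insr, Mki67, mt-Nd2, Mt2, Slc12a1, Slc3a1, Slc9a3, Tsc22d3, Umod, Wnt4 and Zbtb16.

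Replicate numbers did not pair the samples. Deviations of same-numbered vehicle libraries correlated at -0.078 to 0.037, and those on PMX-53 at -0.12 to 0.13. With the replicate number as a block 6221 genes were called on vehicle, 1483 on PMX-53 and 1344 for the difference.

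The smallest vehicle library held 12461567 counts. Thinned to the smallest total of all libraries, 5614 genes were called. Values near 1 CPM, such as C5ar1, rest on few reads.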
